A study of Mus musculus with 8 samples.

Results

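Dazl, Tex19.1, Slc25a31, Taf7l, Brdt, Tex101, Hormad1, Dmc1, Mei1 and Rpl10l are 10 mouse germline genes grouped as genes that germ cells switch on after their DNA loses methylation. They were chosen by name, and all 10 were among the 21444 genes with at least 1 count, although Mei1 had too few to be tested. RNA was sequenced from primordial germ cells, from which eggs or sperm later form, which were sorted at embryonic day 11.5 by a dPE_Oct4 GFP reporter, with 50 pg of total RNA used per library in a method built for single cells. The Prmt5 KO group (Blimp1Cre;Prmt5flox/flox) had 4 libraries, and so did the Control group (Blimp1Cre;Prmt5flox/+). All 8 libraries thus came from embryos with Blimp1Cre, the reporter and at least 1 floxed Prmt5 allele on a mixed background of C57BL/6 and 129. Blimp1, from which the Cre takes its name, is also transcribed in some cells outside the germ line, and the sources used here do not say whether embryos were pooled for a library.

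In early embryos the promoters of many germline genes carry DNA methylation, and repressor complexes such as PRC1.6, which binds E-box and E2F sequences through its MGA-MAX and E2F6-DP1 subunits, hold the same genes silent in somatic cells. As primordial germ cells enter the gonad, methylation is erased across the genome, and genes of this class become active ahead of meiosis. Prmt5, the deleted gene, encodes an arginine methyltransferase with histone and splicing protein substrates. The comparison addresses how transcription of these genes stood in germ cells of the Prmt5 KO genotype during that erasure; DNA methylation itself was not measured in the files used here.

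The promoters of the 10 genes were examined first, since CG dinucleotides are where methylation acts. RefSeq windows on GRCm38.p6, from 250 bases before to 50 bases after the transcription start, were found for all 10. They held a median of 18.5 CG dinucleotides, from 8 for Mei1 to 28 for Dazl, against a median of 7 over all 32851 windows with quartiles of 3 and 20. All 10 were above that median. The Mei1 window lies 12479 bases from the start of the Mei1 transcript that was counted, so its count of 8 belongs to another start site, while for the other genes the starts differed by at most 19 bases. Dazl, whose window was the richest, and Dmc1, with the lowest fold change of the set described below, are shown by the 250 bases before their starts, with each CG in capitals. That stretch held 20 CG dinucleotides in Dazl, at chr17:50293621-50293870 on the minus strand, and 12 in Dmc1, at chr15:79605110-79605359 on the minus strand.
Dazl: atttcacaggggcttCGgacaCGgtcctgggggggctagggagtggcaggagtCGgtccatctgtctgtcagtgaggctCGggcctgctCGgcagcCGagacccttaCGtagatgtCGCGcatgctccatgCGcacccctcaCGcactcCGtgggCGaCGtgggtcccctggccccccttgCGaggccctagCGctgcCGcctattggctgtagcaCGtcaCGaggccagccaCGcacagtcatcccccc
Dmc1: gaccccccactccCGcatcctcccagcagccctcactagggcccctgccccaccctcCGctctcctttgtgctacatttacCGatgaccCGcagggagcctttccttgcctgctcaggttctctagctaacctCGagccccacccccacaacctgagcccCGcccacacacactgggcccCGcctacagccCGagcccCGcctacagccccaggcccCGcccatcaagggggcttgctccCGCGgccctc

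The E-box CACGTG, which reads the same on both strands, was present in the windows of 4 of the 10 genes, Slc25a31, Taf7l, Brdt and Hormad1, and in 7.15% of all windows. Its first base lay 93 bases before the start in Slc25a31, 49 in Taf7l, 78 in Brdt, and 57 and 20 in Hormad1, which has a pair. The E2F word GGCGGGA, searched on both strands, was present in 2 of the 10 windows, those of Slc25a31 and Hormad1, and in 11.3% of all windows. These are matches of letters and carry no test. The first E-box of each of the 4 promoters is shown in capitals with 30 bases on each side, because it is the word these promoters share, at chr3:40708748-40708813 (plus strand) for Slc25a31, chrX:134476504-134476569 (minus strand) for Taf7l, chr5:107331086-107331151 (plus strand) for Brdt and chr3:95559590-95559655 (plus strand) for Hormad1.
Slc25a31: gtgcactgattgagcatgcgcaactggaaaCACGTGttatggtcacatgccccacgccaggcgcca
Taf7l: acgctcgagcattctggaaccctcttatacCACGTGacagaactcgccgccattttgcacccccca
Brdt: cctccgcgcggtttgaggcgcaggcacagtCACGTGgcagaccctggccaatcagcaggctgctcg
Hormad1: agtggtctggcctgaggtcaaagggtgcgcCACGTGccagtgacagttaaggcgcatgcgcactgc

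In the GENCODE annotation of GRCm38 the genes lie, by strand, as Dazl at chr17:50279395-50293636 (minus), Tex19.1 at chr11:121146143-121148319 (plus), Slc25a31 at chr3:40708855-40726096 (plus), Rpl10l at chr12:66283379-66284401 (minus), Dmc1 at chr15:79561497-79605109 (minus). The others are Hormad1 at chr3:95559677-95587671 (plus), Mei1 at chr15:82069996-82126814 (plus), Taf7l at chrX:134460118-134476490 (minus), Brdt at chr5:107331159-107387058 (plus) and Tex101 at chr7:24668007-24676675 (minus). Counts were of reads on annotated transcripts, and no exon of the counted transcripts overlapped another gene.

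**Figure D1:**
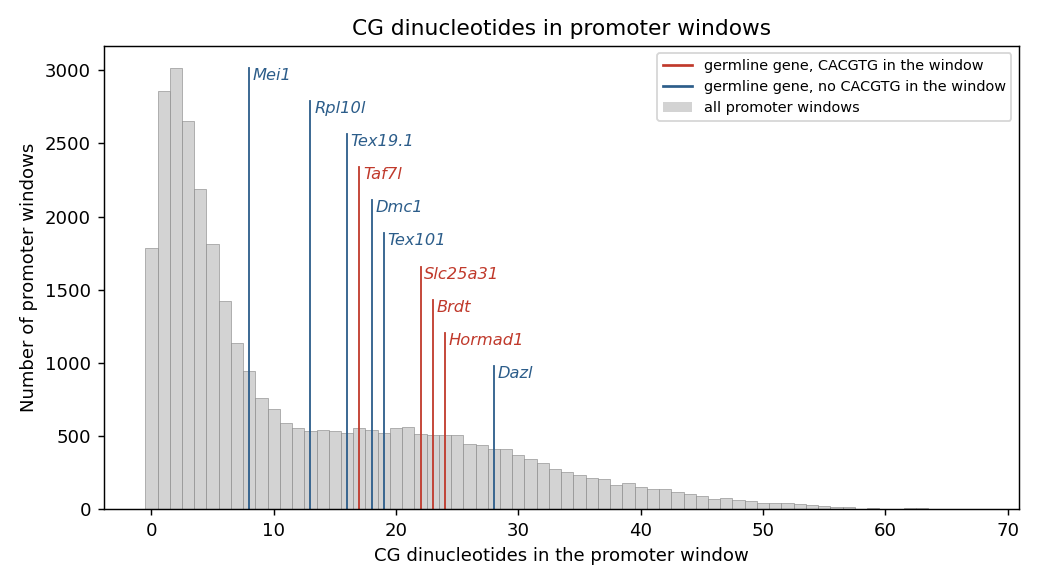
Number of CG dinucleotides (x axis) in promoter windows of 300 bases, as a histogram of all 32851 windows (grey bars, y axis in windows) with a line for each of the 10 germline genes; line height has no meaning. The lines run from 8 (Mei1) to 28 (Dazl), right of the median of 7, and the 4 genes with CACGTG are in red.

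The depth and the labels were checked before the genes were compared. The 4 Prmt5 KO libraries held 4318972 to 6549504 gene counts, and the Control libraries 1811428 to 5844441, with Control 2 and Control 3 the shallowest of the 8. Prmt5 was at 39.9, 40.5, 35.3 and 26.4 CPM (counts scaled to a common library total, with TMM factors) in Prmt5 KO 1 to 4, against 89.4, 171, 172 and 118 CPM in Control 1 to 4. The groups did not overlap, and the log2 fold change was -1.95 (edgeR adjusted p = 0.0389), below 0 in each of the 18 alternative fits but with the call lost in 13 of them. The 12 markers of primordial germ cells, among them Pou5f1, Dppa3 and Prdm14, were all detected, with a summed level of 3913 to 4825 CPM in Prmt5 KO and 3606 to 4332 CPM in Control. The 14 markers of somatic gonad summed to 176 to 773 CPM in Prmt5 KO and 140 to 217 CPM in Control, and the highest value was that of Prmt5 KO 1, the other 3 Prmt5 KO libraries being at most at 217 CPM. Mfge8 made up 114 to 180 CPM of this sum in each library, and Acta2, of smooth muscle, was at 208 CPM in Prmt5 KO 1, against 7.13 CPM or less in the other 7 libraries. The 6 endothelial markers summed to 296 to 395 CPM in Prmt5 KO and 279 to 360 CPM in Control, of which Pecam1, also made by germ cells, gave 215 to 322 CPM in Prmt5 KO and 241 to 345 CPM in Control. Tek, an endothelial receptor, was at 72.4, 12.2, 53.7 and 71.0 CPM in Prmt5 KO 1 to 4, against 28.9, 4.46, 7.68 and 8.09 CPM in Control 1 to 4 (log2 fold change 2.05, edgeR adjusted p = 0.409). Egfl7 went the other way, at 5.43 ± 2.49 CPM in Prmt5 KO and 12.4 ± 6.87 in Control (SD, n = 4 each; log2 fold change -1.18, edgeR adjusted p = 0.684). Cdh5, too low to be tested, averaged 0.699 CPM in Prmt5 KO and 2.20 CPM in Control. Kdr and Emcn were at 0 in the 4 Prmt5 KO libraries and nearly so in Control. There Kdr had 3 counts in Control 3 and Emcn 1 count in Control 1, with 0 in the other Control libraries. These genes were picked out after their values were seen, and their part in the results was not tested. The 9 blood markers summed to 6.48 to 43.6 CPM in Prmt5 KO and 20.8 to 43.1 CPM in Control, with Hba-a1, Hba-a2, Hbb-bt and Hbb-y at 0 in all 8 libraries. Sex was not given in the labels and was not assigned. Xist was at 8.95, 7.17, 2.53 and 2.49 CPM in Prmt5 KO 1 to 4, against 3.55, 4.02, 1.10 and 4.75 CPM in Control 1 to 4. The Y-linked genes Ddx3y, Eif2s3y and Uty were at 0.893 CPM or less in every library, and Kdm5d was not detected. In multidimensional scaling Prmt5 KO 4 and Prmt5 KO 1 stood apart from the other libraries.

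Levels were compared between the 10 genes only per length, as CPM per kilobase of the counted transcript. Tex19.1, a germ cell protein that limits transposon movement, was the most abundant at 367 ± 119 CPM per kilobase in Prmt5 KO and 385 ± 76.5 in Control (SD, n = 4 each), and its lowest library, at 269, was above every library of the next gene. Dazl followed at 42.1 ± 19.9 CPM per kilobase in Prmt5 KO and 63.6 ± 39.1 in Control, then Rpl10l at 31.5 ± 17.4 and 34.4 ± 18.7, Hormad1 at 19.4 ± 4.96 and 17.7 ± 11.4, and Slc25a31 at 10.9 ± 1.73 and 18.5 ± 17.2 (SD, n = 4 each). Dmc1, Tex101, Brdt and Taf7l averaged between 1.73 and 5.33 CPM per kilobase over the 8 libraries, and Mei1 0.142. From Dazl down, the range of each gene over the 8 libraries overlapped that of its neighbour in this order. Genes further apart could be separate, as the lowest Dazl library, at 18.9, was above the highest of Dmc1, at 15.8. The order of the genes within each library was not examined.

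**Figure D2:**
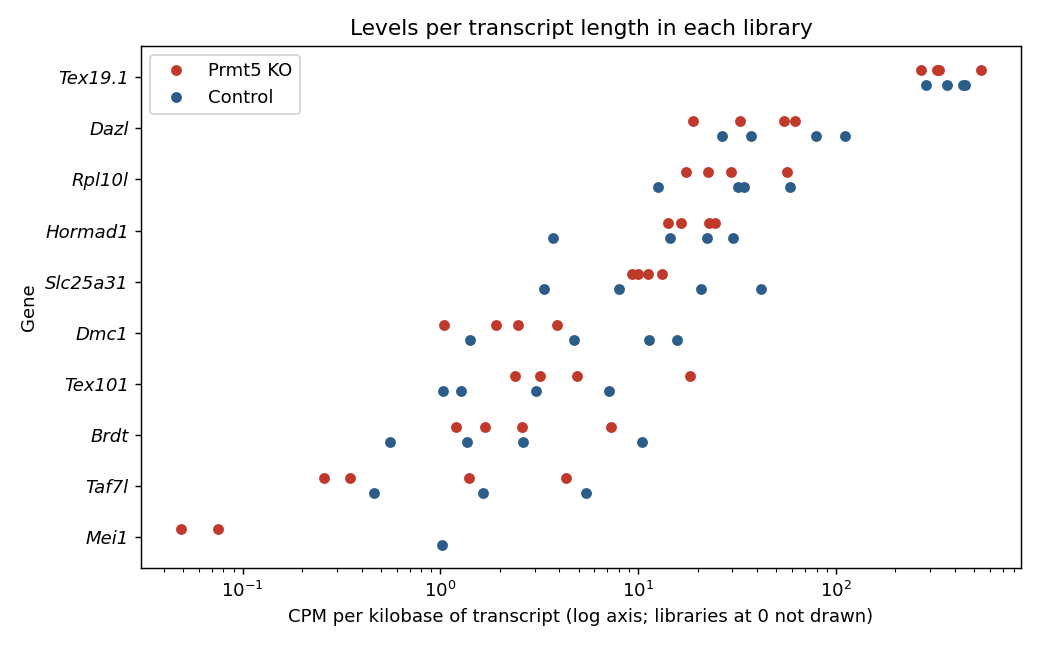
Level of each germline gene in CPM per kilobase of transcript (log x axis), 1 point per library, with Prmt5 KO in red above Control in blue for each gene; libraries at 0 are not drawn. Tex19.1 stands alone at 269 or more, while from Dazl to Mei1 the ranges of neighbouring genes overlap.

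Of the 10 genes, 9 passed the filter on low counts, Mei1 being the exception, and 0 of the 9 differed between Prmt5 KO and Control by the edgeR quasi-likelihood test at a threshold of 0.05, with p adjusted over 10990 genes. Over all genes that rule called 0.0273%. DESeq2 also called 0 of the 9, against 0.974% of all genes, and edgeR without the filter also called 0 of the 9, against 0.0326%. At an unadjusted p under 0.05, 1 of the 9 was lower in Prmt5 KO, Dmc1, where 3.69% of all genes were lower and 8.15% passed in either direction. A log2 fold change below 0 was found for 7 of the 9, with a median of -0.29, against 47.3% of all genes and a median of 0.03. The Prmt5 KO and Control libraries overlapped for each of the 9 genes, while the groups did not overlap for 4.9% of all genes. As these are bulk samples, fewer cells that transcribe a gene and less RNA per cell cannot be told apart. Whether different embryos gave the 4 libraries of each group is not in the labels, so each p-value measures the spread between libraries, part of which may be technical.

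Dmc1, the recombinase that pairs homologous DNA strands in meiosis, had the lowest fold change of the set. It was at 4.22, 2.33, 8.63 and 5.48 CPM in Prmt5 KO 1 to 4, against 35.0, 3.13, 25.2 and 10.6 CPM in Control 1 to 4. All 4 Prmt5 KO libraries lay below the Control mean, but Control 2 lay among them, so the groups overlapped. Its log2 fold change was -1.83 with a standard error of 0.727 and a 95% interval of -3.40 to -0.26, at an unadjusted p of 0.0254 and an adjusted p of 0.542 in edgeR. In DESeq2 the unadjusted p was 0.00866 and the adjusted p 0.226.

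Hormad1 and Mei1 are the other genes of meiotic chromosomes. Hormad1, which sits on unpaired chromosome axes and helps place and repair the breaks, was at 32.9, 35.3, 20.4 and 23.7 CPM in Prmt5 KO 1 to 4, against 43.8, 5.36, 20.8 and 32.2 CPM in Control 1 to 4. The Prmt5 KO values lay inside the Control range, whose lowest point was Control 2. Its log2 fold change was 0.12 (standard error 0.515, 95% interval -0.99 to 1.23, edgeR adjusted p = 0.979). Its 4 annotated transcripts gave almost the same counts, as in Prmt5 KO 1 with 195 counts for 3 of them and 175 for the other, so they cannot be separated. Hormad2, its relative on the same axes, was at 11.0 ± 4.16 CPM in Prmt5 KO and 23.0 ± 13.4 in Control (SD, n = 4 each; log2 fold change -1.07, edgeR adjusted p = 0.651), and shares at most 12 identical bases in a row with it. Mei1, needed to form meiotic breaks, had 12 counts in all: 0, 1, 2 and 0 in Prmt5 KO 1 to 4, against 0, 9, 0 and 0 in Control 1 to 4. A count of 0 allows up to 3 counts, which is 0.507 and 0.748 CPM in Prmt5 KO 1 and 4, against 0.507, 1.65 and 0.528 CPM in Control 1, 3 and 4. Mei1 was therefore above that limit in Control 2 alone, at 4.02 CPM, and no fold change is given. Meiotic entry was barely visible by Stra8, the retinoic acid target that starts it, with 9 counts in Prmt5 KO 3 and 0 in the other 3 Prmt5 KO libraries, against 1 count in Control 4 and 0 in the other 3 Control libraries. Of 5 listed genes of meiotic entry, 3 were tested (Spo11, Rec8 and Zglp1) and 0 were called, where 0.0273% of all genes were. Meiosin was not analysed here.

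Dazl, the RNA-binding protein that licenses germ cells for gamete development, was at 163, 56.2, 97.2 and 185 CPM in Prmt5 KO 1 to 4, against 331, 79.5, 110 and 237 CPM in Control 1 to 4. Control 1 and Control 4 were above every Prmt5 KO library, and Control 2 and Control 3 were among them. The log2 fold change was -0.61 (standard error 0.431, 95% interval -1.54 to 0.32, edgeR adjusted p = 0.760). Boll, of the same family of RNA-binding proteins, was at 5.16 ± 6.95 CPM in Prmt5 KO and 3.77 ± 3.87 in Control (SD, n = 4 each; log2 fold change 0.38, edgeR adjusted p = 0.970). Tex19.1 was at 583, 469, 566 and 941 CPM in Prmt5 KO 1 to 4, against 787, 497, 640 and 764 CPM in Control 1 to 4. It had the lowest biological coefficient of variation of the set, 0.231, and its log2 fold change was -0.07 (standard error 0.207, 95% interval -0.52 to 0.38, edgeR adjusted p = 0.968). Tex19.1 shares a run of 72 identical bases with its neighbour Tex19.2, at 3.29 ± 2.27 CPM in Prmt5 KO and 4.54 ± 1.01 in Control (SD, n = 4 each), so reads could be split between the pair.

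Slc25a31 and Rpl10l are germ cell versions of housekeeping genes carried on the X chromosome, whose transcription stops when the sex chromosomes are silenced in meiosis. Slc25a31, the germ cell carrier of ADP and ATP across the mitochondrial membrane, was at 24.0, 19.8, 21.3 and 28.2 CPM in Prmt5 KO 1 to 4, against 89.1, 7.14, 17.0 and 44.3 CPM in Control 1 to 4. The Prmt5 KO libraries were tight, the highest being 1.42 times the lowest, and lay inside a Control range of 12.5 times. The log2 fold change was -0.78 (standard error 0.585, 95% interval -2.04 to 0.48, edgeR adjusted p = 0.783). Rpl10l, the retrocopy of the ribosomal protein gene Rpl10, was at 30.1, 17.8, 23.2 and 57.8 CPM in Prmt5 KO 1 to 4, against 59.7, 12.9, 35.1 and 32.9 CPM in Control 1 to 4. Both groups ran over a similar range, and the log2 fold change was -0.14 (standard error 0.480, 95% interval -1.17 to 0.90, edgeR adjusted p = 0.972). Rpl10l and Rpl10 transcripts were 84.3% identical over 664 aligned positions, with at most 23 identical bases in a row, and Rpl10 itself was at 459 ± 103 CPM in Prmt5 KO and 406 ± 45.5 in Control (SD, n = 4 each). With no read length given, how far reads of the pair were mixed is uncertain.

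Taf7l, Brdt and Tex101 act in later male germ cells and were scarce at this stage. Taf7l, a variant subunit of the general transcription factor TFIID, was at 0.675, 2.71, 8.33 and 0.498 CPM in Prmt5 KO 1 to 4, against 10.5, 0.893, 0 and 3.17 CPM in Control 1 to 4. Brdt, the testis bromodomain protein that reads acetylated histones, was at 2.70, 1.94, 4.17 and 11.7 CPM in Prmt5 KO 1 to 4, against 16.9, 0.893, 2.19 and 4.22 CPM in Control 1 to 4. Tex101, a surface protein of germ cells, was at 3.38, 2.52, 5.21 and 19.4 CPM in Prmt5 KO 1 to 4, against 3.21, 1.34, 1.10 and 7.56 CPM in Control 1 to 4. The limit of 3 counts was 0.748 CPM in Prmt5 KO 4, against 1.34 and 1.65 CPM in Control 2 and Control 3. Taf7l lay below it in each of these libraries, Brdt in Control 2 and Tex101 in Control 3. The highest libraries were Prmt5 KO 3 and Control 1 for Taf7l, Prmt5 KO 4 and Control 1 for Brdt, and Prmt5 KO 4 and Control 4 for Tex101. Their log2 fold changes were -0.31 (standard error 1.07), -0.29 (0.892) and 1.13 (0.852), with edgeR adjusted p of 0.972, 0.969 and 0.783, and Tex101, with a 95% interval of -0.71 to 2.97, had the highest fold change of the set. The Brdt value rests on a transcript of 7 exons, Brdt-202, with 16, 10, 28 and 47 counts in Prmt5 KO 1 to 4, against 100, 2, 4 and 24 counts in Control 1 to 4. The full transcript of 19 exons, Brdt-201, had 22, 9, 23 and 31 counts in Prmt5 KO 1 to 4, against 58, 10, 5 and 14 counts in Control 1 to 4. Control 2 was the lowest Control library for Brdt-202. For Brdt-201 it was not, relative to depth, with 10 counts out of 2289239, against 14 out of 5583550 in Control 4. No further library pattern is read from counts this low.

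**Figure D3:**
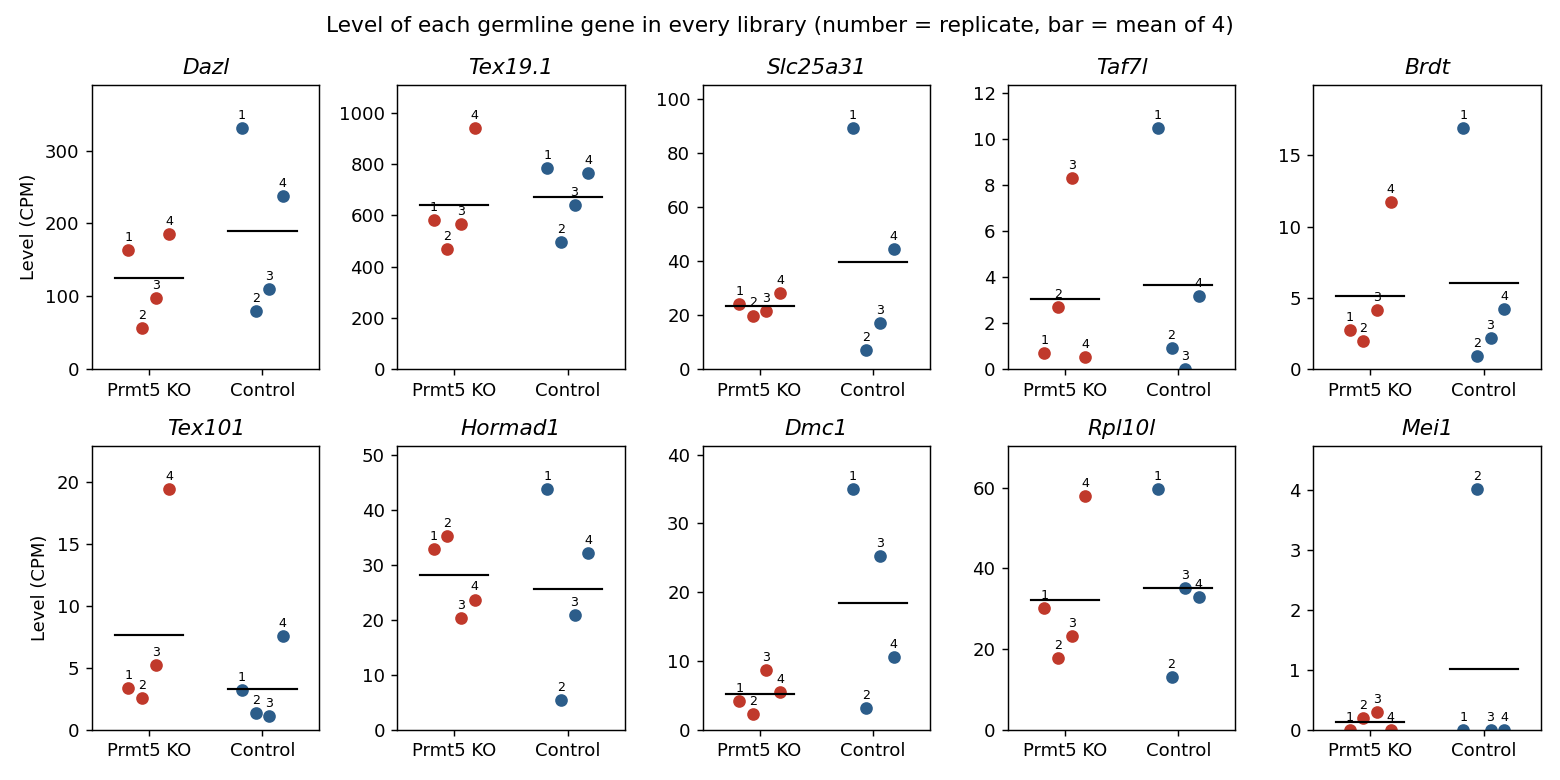
Level in CPM (y axis, a separate scale from 0 in each panel) of the 10 germline genes in the 4 Prmt5 KO libraries (red) and the 4 Control libraries (blue); numbers are replicates and bars are means. The groups overlap in every panel, and Control 1 is the highest of the 8 libraries in 7 of the 9 genes that were tested.

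The spread within the Control group was the most visible pattern of the set. Control 1 was the highest Control library for 8 of the 9 tested genes, where it was highest for 26.6% of all tested genes, and it was the highest of all 8 libraries for 7 of the 9, against 12.01% of all genes. Control 2 was the lowest Control library for 7 of the 9 genes, against 24.6% of all genes, and Control 2 or Control 3 for 9 of the 9, against 48.1%. For Brdt this rests on the shorter transcript, as the full one did not place either library lowest relative to depth. The lowest Control values of Taf7l, Brdt and Tex101 were 2 counts or fewer. The ratio of the highest to the lowest Control library had a median of 7.53 over the 8 genes with no Control library at 0. The median was 2.06 over all genes, 1.38 over the 12 germ cell markers, and 3.18 over other methylation-controlled germline genes. Over the 3 tested genes of meiotic entry it was 7.38, so a wide Control range was not particular to this set. The lists were not matched for abundance. Among the Prmt5 KO libraries the ratio had a median of 3.29 over the 9 genes, against 2.498 over all genes. The biological coefficient of variation that edgeR estimated was above the trend for genes of the same abundance in 9 of the 9 genes, as in 37.1% of all genes, for example 0.427 against a trend of 0.247 for Dazl. This pattern was noticed in the data and carries no test.

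In Control 1 and Control 2, exact Poisson 95% intervals, which cover counting error of reads only and not the making of the libraries, were 316 to 346 and 68.2 to 92.0 CPM for Dazl, 81.6 to 97.0 and 4.08 to 11.6 CPM for Slc25a31, and 30.4 to 40.1 and 1.26 to 6.44 CPM for Dmc1. Depth moved with the pattern, since Control 2 and Control 3 held 2289239 and 1811428 gene counts, against 5844441 and 5583550 in Control 1 and Control 4; its part in the result was not tested. Of the 9 genes, 7 were lower in Control 3, the shallowest library, than in Control 4, among them Dazl at 110 against 237 CPM. Dmc1, at 25.2 against 10.6 CPM, and Rpl10l, at 35.1 against 32.9 CPM, were higher there. Germ cell markers did not follow the order, as their summed level was lowest of the 8 libraries in Control 1, at 3606 CPM, and Control 1 was the highest Control library for 0 of the 12. Within Prmt5 KO, Prmt5 KO 4 was the highest for 6 of the 9 genes and Prmt5 KO 1, the library with the high somatic markers, for 0. The shares over all genes were not determined, so neither count is read as a trait of the set.

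**Figure D4:**
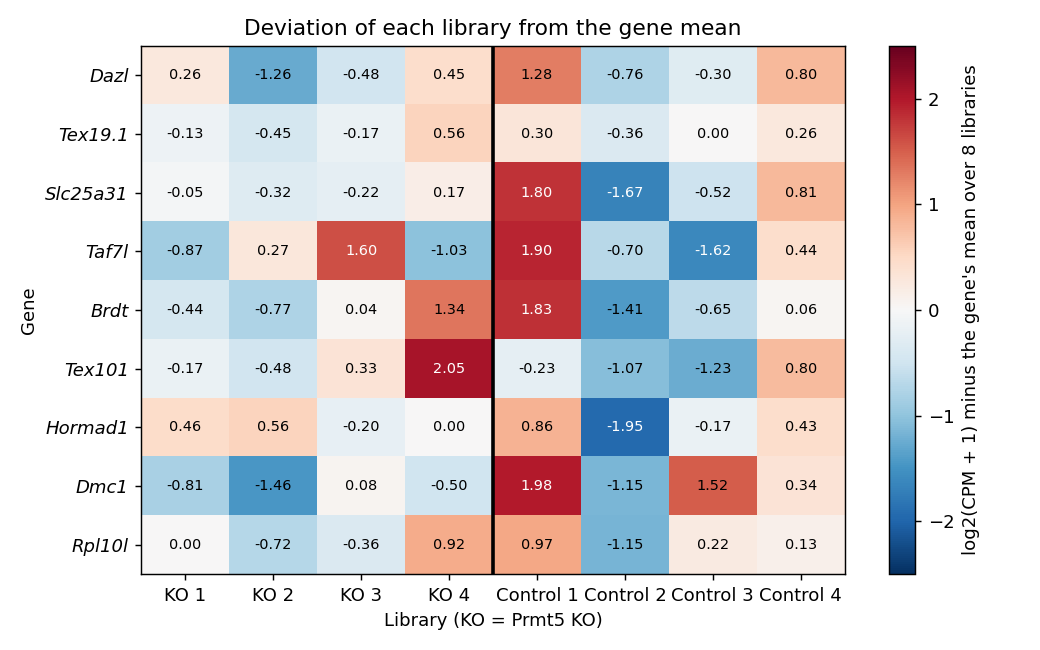
Deviation of each library (columns, Prmt5 KO left of the line and Control right of it) from the mean of the gene over the 8 libraries, in log2(CPM + 1), for the 9 tested genes (rows). The Control 1 column is above 0 for all but Tex101, where it is -0.23, and the Control 2 column is below 0 throughout.

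The direction of the comparison depended on which Control libraries were in it. Control 1 stood out as high and Control 2 and Control 3 as low in these same values. Shifts on leaving them out were thus largely built in and carry no support of their own. Without Control 1, the highest library, 7 of the 9 log2 fold changes were above 0, with a median of 0.25. Without Control 2 and Control 3, the shallow libraries, 8 of the 9 were below 0, with a median of -1.04. Dazl was then at -1.17 (unadjusted p = 0.0154) and Slc25a31 at -1.51 (unadjusted p = 0.00484), with edgeR adjusted p of 0.809 and 0.760. Without Control 1 and Control 4, 8 of the 9 were above 0, with a median of 0.96; this alternative was chosen after seeing the data. Dmc1 was lower in Prmt5 KO in each of the 18 alternative fits, between -2.20 and -1.31, and Tex101 was higher in each, between 0.10 and 2.62. The 0.10 of Tex101 came from the fit without Prmt5 KO 4, its highest library, and without Prmt5 KO 1 and 4 it was 0.17. Neither Dmc1 nor Tex101 was called in any of the fits. Without Prmt5 KO 1 and Prmt5 KO 4, the libraries that stood apart, the median was -0.79 and 6 of the 9 were below 0.

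**Figure D5:**
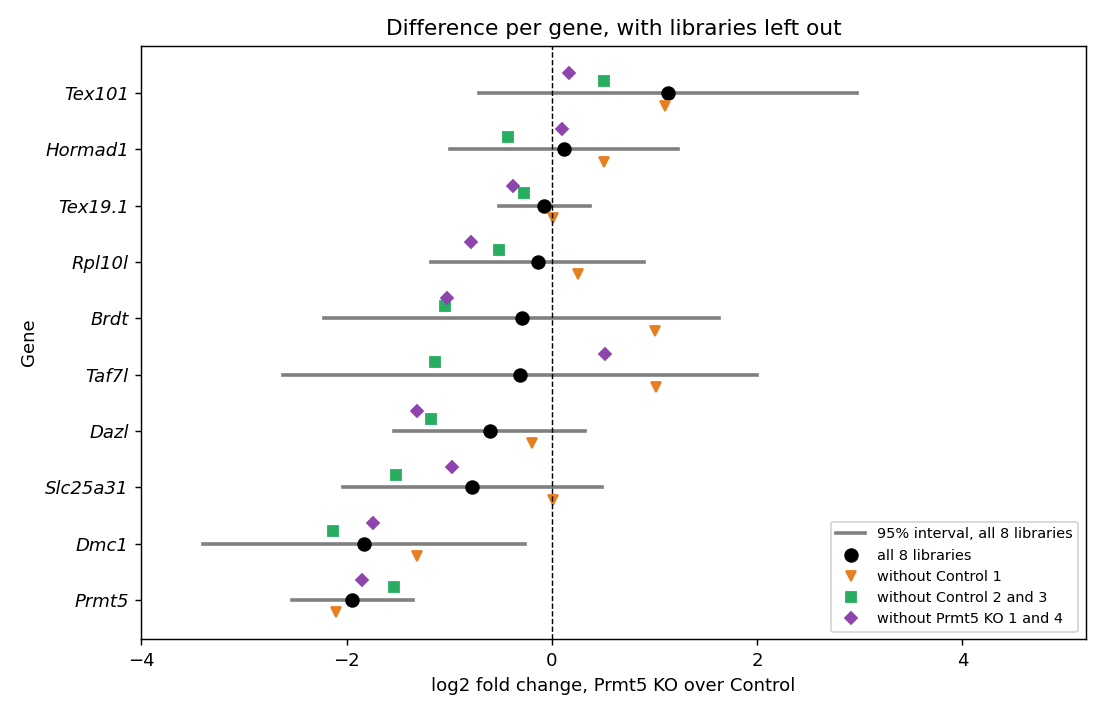
Log2 fold change of Prmt5 KO over Control (x axis) for the 9 tested germline genes and Prmt5, with all 8 libraries (black points, grey 95% intervals from the edgeR fit) and with libraries left out (coloured points). Prmt5 lies below 0 in every fit shown; of the germline genes only Dmc1 has an interval that does not reach 0, -3.40 to -0.26, at an adjusted p of 0.542.

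Other germline genes known or thought to be under methylation control were measured the same way. Of 47 listed genes, 44 were measured and 35 tested, 0 of them called in either direction, where 0.0273% of all genes were called. Of the 35 log2 fold changes, 21 were below 0 (60%, against 47.3% of all genes), with a median of -0.09, against 0.03. At an unadjusted p under 0.05, 2 were higher and 3 were lower, where 8.15% of all genes passed in either direction and 3.69% were lower. Ddx4, the germ cell RNA helicase, was at 161 ± 77.0 CPM in Prmt5 KO and 154 ± 61.1 in Control (log2 fold change 0.05), Mael, of the piRNA pathway, at 47.4 ± 30.3 and 42.2 ± 20.1 (0.15), and Sycp3, of the synaptonemal complex, at 7.96 ± 4.95 and 9.10 ± 5.25 (-0.19; SD, n = 4 each). The smallest unadjusted p values were those of Tdrkh and Syce2, 2 of the 35 genes, whose groups did not overlap, as for 2.27% of all genes in the lower direction. Tdrkh, a tudor protein of piRNA trimming, was at 55.0, 53.3, 50.4 and 36.6 CPM in Prmt5 KO 1 to 4, against 111, 67.9, 84.5 and 129 CPM in Control 1 to 4 (log2 fold change -1.01, edgeR adjusted p = 0.292). Syce2, of the synaptonemal complex, was at 53.2, 111, 108 and 107 CPM in Prmt5 KO 1 to 4, against 170, 196, 221 and 137 CPM in Control 1 to 4 (log2 fold change -0.93, edgeR adjusted p = 0.304). All 8 Prmt5 KO values of the pair were thus below the Control values of the same gene. Next by p came Tktl1, a relative of transketolase, at 26.2, 0.388, 3.72 and 39.1 CPM in Prmt5 KO 1 to 4, against 1.01, 0.893, 1.10 and 3.52 CPM in Control 1 to 4 (log2 fold change 3.31, edgeR adjusted p = 0.434), with Prmt5 KO 1 and 4 carrying most of it, and Zcwpw1, a histone reader at meiotic breaks, at -0.89 (edgeR adjusted p = 0.510). Control 1 was the highest Control library for 17 of the 35 (48.6%, against 26.6% of all genes) and Control 2 or Control 3 the lowest for 24 (68.6%, against 48.1%).

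Genes that act on DNA methylation or repress this class gave no call either, where the edgeR test called 0.0273% of all genes. With so few calls over all genes, lists this short could hardly show one. Of 7 listed genes of DNA methylation and its removal, 5 were tested and 0 called, with log2 fold changes from 0.11 for Tet1, which oxidises methylcytosine, to 1.15 for Tet2. Tet2 was at 16.9 CPM in Prmt5 KO 4, against 2.20 to 4.02 CPM in Prmt5 KO 1 to 3. Its Control libraries were at 1.35 to 4.46 CPM. Dnmt1, the maintenance methyltransferase, was at 0.29. Of 10 genes of PRC1.6, 9 were tested and 0 called, with log2 fold changes from -0.24 for L3mbtl2 to 0.54 for Mga. Of 3 genes that methylate histone H3 at lysine 9, Ehmt1, Ehmt2 and Setdb1, 0 were called, with a median of 0.04. In these lists the ratio of the highest to the lowest Control library had medians of 1.499 for DNA methylation, 1.58 for PRC1.6 and 1.48 for histone H3 methylation.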

How the data were processed

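Libraries were made from 50 pg of total RNA of sorted cells, per the labels' protocols, and the authors deposited whole-number counts per Ensembl transcript, 1 table per library. The build was GRCm38 (mm10), per the submitters' processing notes; for aligner, counting tool, use of strand and read length nothing is stated in the sources used here. Transcript identifiers were matched to GENCODE M21 (64258 of 66262, 97.0%), and the 2004 unmatched ones, with 1.75% to 1.90% of counts, were left out. Because transcripts of a gene share reads, each gene took the counts of its transcript with the highest total, which kept 44.5% of transcript counts; a sum over transcripts was an alternative.

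Prmt5 KO was compared with Control, 4 libraries each, with edgeR 4.0.16 in R 4.3.3 (quasi-likelihood test, robust, TMM scaling, filterByExpr with a minimum count of 10 and total of 15), and p-values were adjusted by Benjamini-Hochberg over 10990 genes with a threshold of 0.05. DESeq2 1.42.0, limma 3.58.1 (voom), RLE size factors, no filter, no robust estimation, a replicate block and fits leaving out libraries were alternatives; the one without Control 1 and Control 4 was added after seeing the data. CPM used TMM-scaled totals, and the common biological coefficient of variation was 0.488. Exact Poisson intervals at 95% and the limit of 3 counts for a count of 0 cover counting error only.

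Promoter sequences came from RefSeq (GRCm38.p6), and transcripts of related genes were aligned with Biopython 1.88. The 10 genes and the other lists were chosen with earlier results of these data known. All 10 genes, Prmt5 and relatives of the 10 genes are named, except 1 relative that is not reported here; of the other methylation-controlled genes, Ddx4, Sycp3, Mael and the 4 with the smallest unadjusted p are named. The groups of the other lists are given by counts, with their extremes and a few members chosen after their values were seen. No libraries held identical values.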

Additional observations from a re-analysis of the deposited data

Results flagged for a closer look

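Tex101 stood at 19.4 CPM in Prmt5 KO 4, far above the other 3 Prmt5 KO libraries, at 2.52 to 5.21 CPM. Mei1 stood at 4.02 CPM in Control 2, from 9 counts, while the other 3 Control libraries were at 0. A search of 26 sets of 4 libraries gave these 2 values. For normally distributed values, chance flags about 1 in 20 sets, or 1.3 here. CPM from few counts need not follow that rate. With the other 3 libraries at 0, as for Mei1 in Control, any value above 0 is flagged.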

How the results depend on the processing

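None of the 9 tested germline genes was called in any of the 18 alternatives, in which the smallest adjusted p was 0.226 (Dmc1, DESeq2). Of their 162 log2 fold changes, 142 kept their sign and 20 turned, 11 of these on leaving out 1 library; the cause was not tested. Over all genes, 3 were called, against 107 by DESeq2, 7 without the filter, and 1 each by limma voom, the sum of transcripts, the replicate block and the fit without Prmt5 KO 1 and 4. RLE size factors gave 3, no robust estimation 2, and leaving out 1 library 1 to 2. Without Control 2 and 3 edgeR called 0 (713 at an unadjusted p under 0.05) and without Control 1 and 4 also 0 (570). The labels do not say whether replicate numbers pair the libraries. Same-numbered ones correlated at 0.0694, 0.0396, 0.0023 and 0.0504. Prmt5 KO 1, 2 and 4 and Control 1, 2 and 4 correlated best with their own number, while Prmt5 KO 3 and Control 3 did not. Correlations this weak cannot decide pairing. The block turned Brdt to 0.26 and changed no other sign. With it the unadjusted edgeR p was 0.0230 for Dazl, against 0.183 in the fit without it, and 0.0432 for Dmc1, against 0.0254. Their edgeR adjusted p with the block was 0.551 and 0.589. Leaving out each library in turn gave log2 fold changes of -0.85 to -0.19 for Dazl, -0.32 to 0.056 for Tex19.1, -1.12 to 0.0078 for Slc25a31, -1.53 to 1.01 for Taf7l, -1.08 to 1.00 for Brdt, -0.20 to 0.51 for Hormad1 and -0.58 to 0.25 for Rpl10l. Without Control 1 and 4, values turned to 0.41 for Dazl, 0.18 for Tex19.1, 0.96 for Slc25a31, 2.64 for Taf7l, 1.73 for Brdt and 0.44 for Rpl10l. Taf7l was at 0.52 without Prmt5 KO 1 and 4, and Hormad1 at -0.43 without Control 2 and 3. At 1811428 to 6549504 counts a library, Mei1, Taf7l, Brdt and Tex101 rest on few reads.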
